A study of Arabidopsis thaliana with 3 samples.

Results

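The genes described here encode 9 histone chaperones of H3 in Arabidopsis thaliana, taken by locus identifier from the TAIR10.1 annotation out of 27444 protein-coding genes on chromosomes 1 to 5. They are HIRA and ATRX, which act independently of DNA replication; FAS1, FAS2 and MSI1, the subunits of the replication-coupled complex CAF-1; ASF1A and ASF1B, which serve both routes; and SPT16 and SSRP1, the subunits of FACT. DNA methylation was measured by bisulfite sequencing of genomic DNA (BS-seq) from mature leaves of soil-grown plants in the Col-0 ecotype. Both h3.3kd libraries (h3.3kd 1 and h3.3kd 2) come from plants in which H3.3 was depleted, and 1 library comes from wild type (WT). In h3.3kd, as the methods describe it, htr4-2 and htr8-2 insertions in 2 of the H3.3 genes are combined with an artificial microRNA, amiR-HTR5-II, expressed from the HTR5 promoter against the H3.3 gene that is left. Methylation was profiled in 2 such transgenic lines, called h3.3kd-2 and h3.3kd-3 in the methods. The numbers in h3.3kd 1 and h3.3kd 2 are replicate numbers of the labels and not names of lines, and the labels do not say which line each replicate is, so that line and replicate cannot be told apart. WT plants carry neither the insertions nor the transgene, and they are represented by 1 library, which every difference shares.

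Histone H3 reaches chromatin by separate routes. CAF-1 places the canonical histone H3.1 behind the replication fork, whereas HIRA and ATRX place the variant H3.3 at other times, HIRA mainly over transcribed genes. ASF1 hands H3-H4 dimers to both routes, and FACT takes nucleosomes apart and rebuilds them ahead of and behind RNA polymerase. Gene body methylation in plants is methylation of cytosines in CG, maintained by MET1 after replication, without methylation in CHG and CHH (H stands for A, C or T). Because both strands of a CG carry a cytosine, a CG pair is called a dyad.

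The libraries held 822515332 (h3.3kd 1), 842326850 (h3.3kd 2) and 839704204 (WT) calls, a mean of 19.2 to 19.7 calls per cytosine of the genome. A methylation level is the percentage of C calls among C and T calls. All 9 chaperone genes were covered, with relative depth between 0.821 and 1.10 times the genome's mean in every library. The 1 kb upstream of HTR5, which holds promoter sequence of the kind the transgene carries, had a relative depth of 2.09 and 1.94 in h3.3kd 1 and h3.3kd 2, against 1.09 in WT. CHH methylation of gene bodies with low CHG, a measure of unconverted cytosine, was 0.569% and 0.575% in h3.3kd 1 and h3.3kd 2, against 0.590% in WT.

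The comparison of h3.3kd with WT asks how CG methylation of these genes stands when the histone that some of their products deposit is depleted. The 2 genes of the replication-independent route, HIRA and ATRX, had lower CG methylation over the gene body in both h3.3kd libraries, with mean differences from WT of -8.69 and -4.37 percentage points. FAS2, of CAF-1, had higher CG methylation, by 2.85 points. The other 6 genes were not called. A gene was called when Fisher's exact test of C and T calls (two-sided, Benjamini-Hochberg adjusted over all 26970 genes tested) passed an FDR of 0.01 in each h3.3kd library against WT with the same sign. By this rule 19.0% of all genes were lower and 4.84% higher in h3.3kd, and 2 of 9 chaperone genes were lower and 1 was higher. With a minimum difference of 10 points added, 1.44% of all genes were lower and 0.304% higher, and no chaperone gene was called, although HIRA passed it from h3.3kd 2 alone. In h3.3kd 1 alone 23.1% of genes were lower than WT, among them HIRA, ATRX and SSRP1. In h3.3kd 2 alone 26.2% were lower, among them HIRA, ATRX and SPT16. The median difference was -0.125 points over the 9 genes and -0.221 points over all genes tested. Fisher's test treats each call as independent and holds counting error only. The spread between the h3.3kd libraries enters only through the need to pass in both. A fit that uses this spread has 1 residual degree of freedom with these libraries, so that it has little power to call a gene. When that spread was used instead, in limma on log2 ratios of C to T calls, no gene of the 26970 passed an FDR of 0.05, 2371 were lower and 1571 higher at an unadjusted p under 0.05, and the adjusted p of the 9 genes lay between 0.424 and 0.995.

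**Figure D1:**
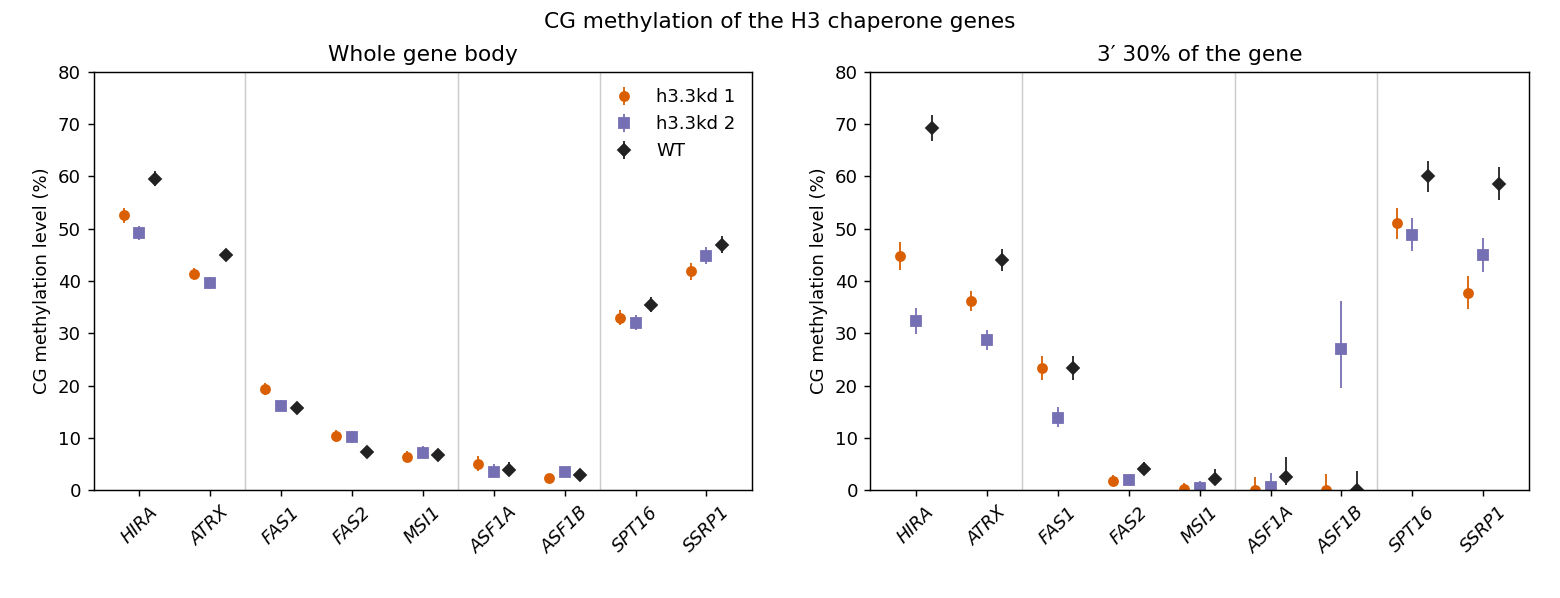
CG methylation level (%) of the 9 chaperone genes over the whole gene body (left) and over the 3′ 30% of the gene (right), in h3.3kd 1 (circles), h3.3kd 2 (squares) and WT (diamonds), with 95% Wilson intervals for counting error. Grey lines part the replication-independent, replication-coupled, shared and FACT genes. HIRA lies at 44.8% and 32.3% in the h3.3kd libraries at the 3′ end, against 69.3% in WT.

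HIRA encodes the histone chaperone subunit that brings H3.3 to transcribed chromatin (AT3G44530, chromosome 3, 16115498 to 16121534, plus strand). Its gene body holds 234 CG cytosines and had the highest CG level of the 9 genes in WT. CG methylation of HIRA was 52.6% in h3.3kd 1 (95% Wilson interval 51.1 to 54.0) and 49.2% in h3.3kd 2 (47.8 to 50.6), against 59.5% in WT (58.1 to 60.9). Both h3.3kd libraries were below WT and their intervals did not overlap that of WT. The adjusted p in Fisher's exact test was 1.0e-10 for h3.3kd 1 and 5.4e-23 for h3.3kd 2. The h3.3kd libraries also differed from each other, by 3.40 points (adjusted p = 0.00815 by the same test, which 10.7% of all genes passed).

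The lower level of HIRA lay at the 3′ end. When the gene was cut into 10 equal bins from the transcription start site (TSS) to the transcription end site (TES), bins 1 and 2 were nearly unmethylated in all 3 libraries, and bin 5 was at 91.9% and 92.1% in h3.3kd 1 and h3.3kd 2, against 92.3% in WT. In bin 8 the levels were 65.6% and 60.3% in h3.3kd 1 and h3.3kd 2, against 86.5% in WT. Bin 9 stood at 32.9% and 7.34% in h3.3kd 1 and h3.3kd 2, against 61.2% in WT. The last bin was at 36.2% and 27.5% in h3.3kd 1 and h3.3kd 2, against 59.4% in WT. Both h3.3kd libraries thus lay well below WT over the last 3 bins, whereas from bin 1 to bin 7 the mean difference from WT was between -2.27 and 2.49 points. The h3.3kd libraries were not alike throughout those bins, and bin 6 was at 75.5% and 85.4% in h3.3kd 1 and h3.3kd 2, against 82.7% in WT. Over the 3′ 30% of the gene the level was 44.8% and 32.3% in h3.3kd 1 and h3.3kd 2, against 69.3% in WT, a mean difference of -30.7 points (adjusted p = 3.2e-34 and 9.7e-78 by Fisher's exact test over 22627 genes). A lower 3′ difference was found in 0.561% of all genes tested. This rank is in points over genes of every WT level, and genes with a low WT level cannot differ by as much.

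**Figure D2:**
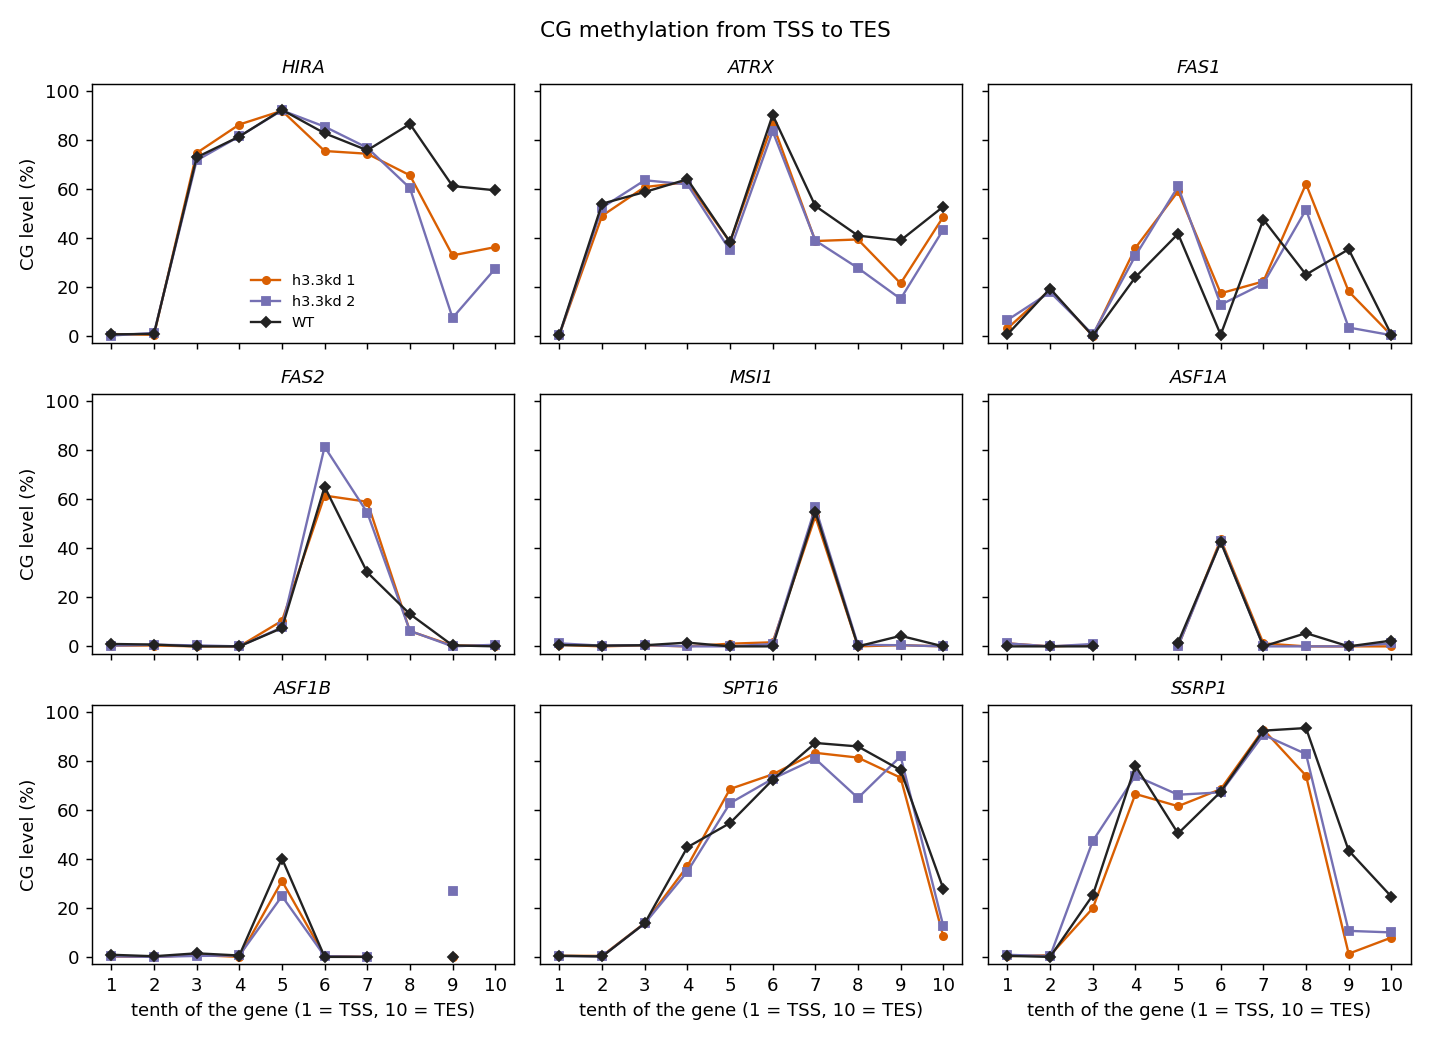
CG level (%) in 10 equal bins from the TSS (1) to the TES (10) of each chaperone gene, in h3.3kd 1 (circles), h3.3kd 2 (squares) and WT (diamonds); bins without CG are left blank. HIRA parts from WT over bins 8 to 10, whereas FAS1 crosses WT several times along the gene.

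Within HIRA, 5 of the 51 tiles of 100 bp that could be tested were lower in h3.3kd and none was higher. A tile was called at the same FDR, adjusted over all 928013 tiles with at least 20 calls in every library, with at least 20 points of the same sign in both h3.3kd libraries. This called 2.59% of all tiles as lower and 1.19% as higher, and 3.91% and 1.57% of the 556536 tiles in gene bodies. The middle of the first called tile of HIRA lay 4553 bp downstream of the TSS. Further upstream, the tile centred at 3553 bp was at 70.1% and 86.1% in h3.3kd 1 and h3.3kd 2, against 95.05% in WT, and only h3.3kd 1 passed. The tile centred at 4053 bp was at 0% of 80 calls and 34.4% of 61 calls in h3.3kd 1 and h3.3kd 2, against 2.17% in WT, and only h3.3kd 2 passed. The tile with the largest difference that both h3.3kd libraries shared is chr3:16120301-16120400, on the border of coding sequence (46 bp) and an intron (54 bp). It is printed here, and the tile where the h3.3kd libraries differed most is printed after it (chr3:16120801-16120900, 27 bp coding and 73 bp intron). Both are shown 5′ to 3′ on the plus strand, from the TAIR10.1 genome, with the CG dyads in capitals.
HIRA near the end: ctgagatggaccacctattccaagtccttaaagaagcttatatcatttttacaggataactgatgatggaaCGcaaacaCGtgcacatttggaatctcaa
HIRA where the h3.3kd libraries differ: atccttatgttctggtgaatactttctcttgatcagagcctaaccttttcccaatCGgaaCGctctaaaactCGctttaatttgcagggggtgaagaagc

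In the first of these windows, the dyad at base 72 was at 20.9% and 2.38% in h3.3kd 1 and h3.3kd 2, against 91.4% in WT. Base 80 marks a dyad that was at 14.6% and 0% in h3.3kd 1 and h3.3kd 2, against 85.3% in WT. Both dyads were therefore low in each h3.3kd library, each value resting on 34 to 43 calls. In the second window the libraries parted dyad by dyad. The dyad at base 56 was at 84.2% in h3.3kd 1 and 11.8% in h3.3kd 2, against 95.2% in WT. At base 61 the level was 19.4% and 0% in h3.3kd 1 and h3.3kd 2, against 97.5% in WT. At base 73 it was 95.3% in h3.3kd 1 and 0% in h3.3kd 2, against 89.4% in WT. Methylation of 2 of these dyads was thus kept in h3.3kd 1 next to a dyad that was low in it, and all 3 were low in h3.3kd 2. As a whole this tile was at 68.4% in h3.3kd 1 and 3.57% in h3.3kd 2, against 93.8% in WT, and the h3.3kd libraries differed (adjusted p = 3.4e-24 by Fisher's exact test over all tiles).

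ATRX, a SWI/SNF-type remodeler that deposits H3.3, is the longest of the 9 genes (AT1G08600, chromosome 1, 2723677 to 2733613, plus strand, 360 CG cytosines). Its last 18 bp overlap AT1G08610. CG methylation of ATRX was 41.4% in h3.3kd 1 (interval 40.4 to 42.5) and 39.6% in h3.3kd 2 (38.6 to 40.7), against 44.9% in WT (43.8 to 46.0), with adjusted p of 4.8e-05 and 1.5e-10 in Fisher's exact test. Again both h3.3kd libraries were below WT with no overlap of intervals. Over the 3′ 30% the level was 36.2% and 28.7% in h3.3kd 1 and h3.3kd 2, against 44.1% in WT, a mean difference of -11.6 points. Coding sequence of ATRX was at 56.0% and 53.6% in h3.3kd 1 and h3.3kd 2, against 61.6% in WT. Its introns were at 35.5% and 34.4% in h3.3kd 1 and h3.3kd 2, against 38.8% in WT. Both kinds of sequence stood below WT in each h3.3kd library, and the untranslated sequence was nearly unmethylated in all 3 libraries.

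Of 82 tiles tested in ATRX, 5 were lower and 1 was higher in h3.3kd. Of the lower tiles, 4 lay more than 8 kb from the TSS. The intronic tile centred 6574 bp from the TSS was at 37.7% and 25.3% in h3.3kd 1 and h3.3kd 2, against 85.0% in WT. The higher tile, also intronic and 2674 bp from the TSS, was at 91.2% and 91.7% in h3.3kd 1 and h3.3kd 2, against 67.0% in WT. The window chr1:2732501-2732600 (74 bp coding, 26 bp intron) is shown because 3 neighbouring dyads in it had no methylated call in either h3.3kd library. It is given 5′ to 3′ on the plus strand with the dyads in capitals.
ATRX: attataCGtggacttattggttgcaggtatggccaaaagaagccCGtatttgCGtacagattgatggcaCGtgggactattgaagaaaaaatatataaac

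The dyad at base 7 was at 0% in all 3 libraries. The dyads at bases 45 and 53 were at 0% in both h3.3kd libraries, against 83.3% each in WT. At base 70 the level was 0% in both h3.3kd libraries, against 88.9% in WT. These 3 dyads had 29 to 44 calls each in the h3.3kd libraries and 42 to 54 in WT, so that methylation in h3.3kd was not detectable at this depth. Where a dyad printed here is at 0%, its 29 to 55 calls allow a level of up to 10.3% to 5.45%, counting error alone.

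**Figure D3:**
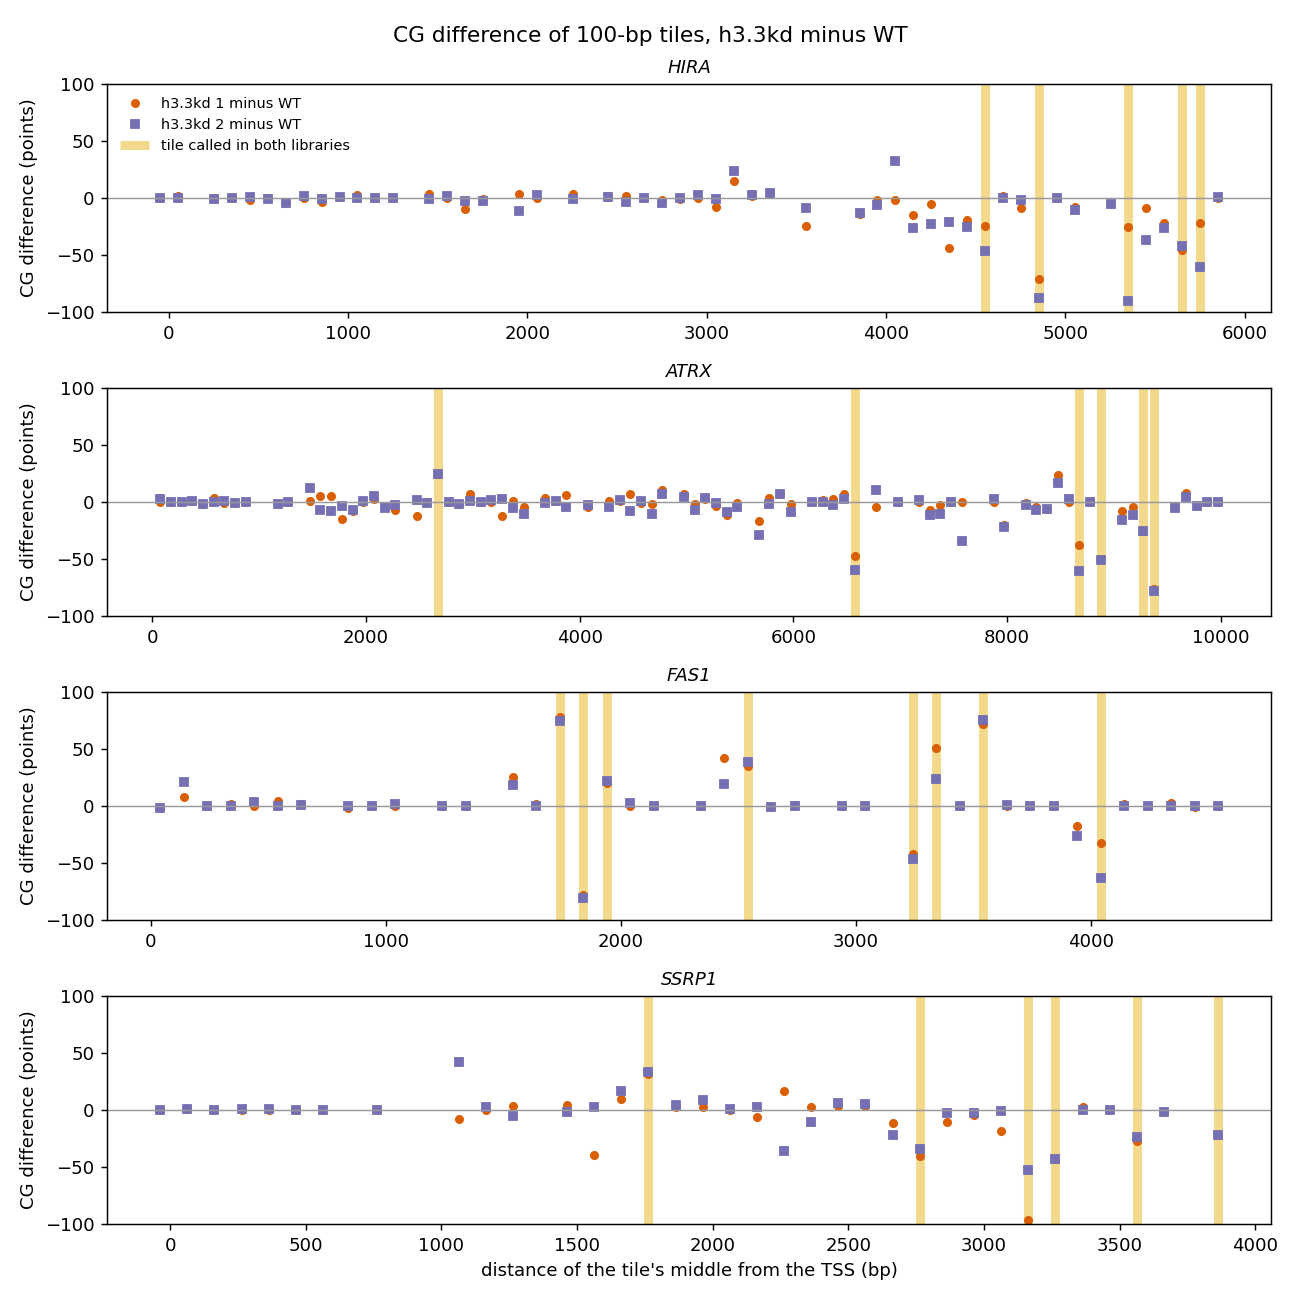
CG difference of 100-bp tiles in percentage points, for h3.3kd 1 minus WT (circles) and h3.3kd 2 minus WT (squares), along HIRA, ATRX, FAS1 and SSRP1 by the distance of the tile's middle from the TSS in bp. Yellow bars mark the tiles called in both h3.3kd libraries: 5 lower in HIRA, 5 lower and 1 higher in ATRX, 3 lower and 5 higher in FAS1, and 5 lower and 1 higher in SSRP1.

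Among the replication-coupled genes, FAS1 was the most uneven. FAS1 encodes the large subunit of CAF-1 (AT1G65470, chromosome 1, 24319396 to 24324091, minus strand, 184 CG cytosines). Its gene body was at 19.3% in h3.3kd 1 (interval 18.1 to 20.5) and 16.2% in h3.3kd 2 (15.1 to 17.4), against 15.8% in WT (14.7 to 16.9). Only h3.3kd 1 stood above WT (adjusted p = 8.4e-05 and 0.749 for h3.3kd 1 and h3.3kd 2 by Fisher's exact test), and the gene was not called. The h3.3kd libraries differed by 3.11 points (adjusted p = 0.00259 by the same test). Along the gene the h3.3kd libraries were both above WT in bins 1, 4, 5, 6 and 8 and both below it in bins 7 and 9, and in bins 2 and 10 they were below it by less than 2 points. In bin 1 the levels were 3.05% and 6.48% in h3.3kd 1 and h3.3kd 2, against 0.571% in WT. There the tile of untranslated sequence centred 140 bp from the TSS was at 8.15% and 21.5% in h3.3kd 1 and h3.3kd 2, against 0.364% in WT (adjusted p = 3.8e-05 and 1.1e-16 by Fisher's exact test over all tiles), and it missed the minimum of 20 points in h3.3kd 1. Bin 8 was at 62.0% and 51.5% in h3.3kd 1 and h3.3kd 2, against 25.0% in WT. Bin 9 was at 18.1% and 3.40% in h3.3kd 1 and h3.3kd 2, against 35.4% in WT. The level over the whole gene therefore adds up stretches that lie on either side of WT.

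Of 40 tiles tested in FAS1, 3 were lower and 5 were higher in h3.3kd, or 7.50% and 12.5%, set against 3.91% and 1.57% of gene body tiles. Single dyads were also counted. A dyad was counted when it had at least 10 calls in every library, as methylated at 60% or more and as unmethylated under 10%. FAS1 had 71 dyads that were unmethylated in WT, and 7 of them were methylated in both h3.3kd libraries. Of its 15 dyads methylated in WT, 6 were methylated and 2 unmethylated in both h3.3kd libraries. The 200 bp of chr1:24322201-24322400 (134 bp coding, 66 bp intron) hold a higher tile next to a lower tile, each with 1 dyad. They are printed 5′ to 3′ on the minus strand, the strand of the gene, with both dyads in capitals.
FAS1 loss beside a gain: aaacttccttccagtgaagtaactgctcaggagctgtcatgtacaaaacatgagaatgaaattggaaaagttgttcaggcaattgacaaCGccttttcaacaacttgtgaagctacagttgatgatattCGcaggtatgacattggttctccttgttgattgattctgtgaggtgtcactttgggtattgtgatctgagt

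The dyad at base 90 was at 77.8% and 74.4% in h3.3kd 1 and h3.3kd 2, against 0% of 32 calls in WT. At base 130 the level was 2.63% and 0% in h3.3kd 1 and h3.3kd 2, against 80.6% in WT. Both h3.3kd libraries thus had the opposite state to WT at each of these neighbouring dyads.

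**Figure D4:**
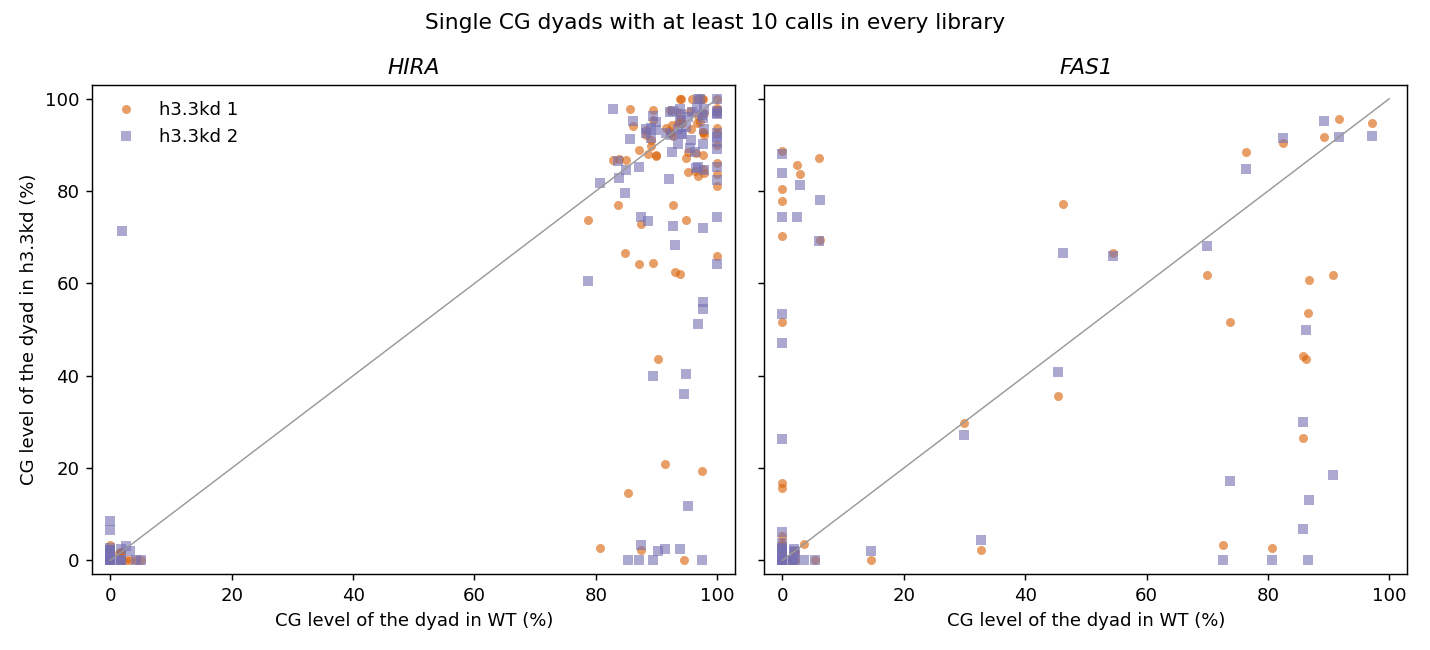
CG level (%) of each dyad with at least 10 calls in every library in HIRA (left) and FAS1 (right), in WT on the x axis and in h3.3kd 1 (circles) and h3.3kd 2 (squares) on the y axis; the line marks equal levels. In FAS1, 7 of 71 dyads that were unmethylated in WT were methylated in both h3.3kd libraries, and in HIRA none of 38 was. In gene bodies with CHG under 5% the share was 0.883%. Of 79 dyads of HIRA methylated in WT, 63 were methylated and 1 was unmethylated in both h3.3kd libraries. That is 1.27% unmethylated in both, set against 8.32% in those gene bodies.

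FAS2, the middle subunit of CAF-1 with WD40 repeats (AT5G64630, chromosome 5, 25833165 to 25836400, plus strand, 132 CG cytosines), was at 10.3% in h3.3kd 1 (interval 9.25 to 11.5) and 10.2% in h3.3kd 2 (9.09 to 11.3), against 7.39% in WT. The h3.3kd libraries lay close together and both were above WT (adjusted p = 0.000588 and 0.00109 by Fisher's exact test). In FAS2 CG methylation was found in the middle of the gene, and bin 7 was at 59.1% and 54.6% in h3.3kd 1 and h3.3kd 2, against 30.2% in WT. The 1 called tile of FAS2 lay in that bin, 2086 bp from the TSS, at 69.5% and 70.4% in h3.3kd 1 and h3.3kd 2, against 40% in WT. The call of FAS2 did not hold over coding sequence alone, where the larger adjusted p of the 2 libraries was 0.0561, and the mean of the levels of single cytosines gave a difference of 0.682 points instead of 2.85.

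MSI1, the small WD40-repeat subunit of CAF-1 that is also part of Polycomb complexes, is a short gene (AT5G58230, chromosome 5, 23556012 to 23558245, plus strand, 102 CG cytosines) that shares 132 bp with FHIT (AT5G58240). CG methylation of MSI1 was 6.34% and 7.18% in h3.3kd 1 and h3.3kd 2, against 6.76% in WT. Nearly all of it was in bin 7, which was at 53.1% and 56.8% in h3.3kd 1 and h3.3kd 2, against 55.0% in WT. The difference from WT was smaller than that between the h3.3kd libraries, and no tile was called. All 3 dyads of MSI1 that were methylated in WT were methylated in both h3.3kd libraries.

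ASF1A (AT1G66740, named SGA2 in the annotation, chromosome 1, 24892340 to 24893876, plus strand) had only 40 CG cytosines. Its level was 4.96% and 3.55% in h3.3kd 1 and h3.3kd 2, against 3.85% in WT. Methylation was found in bin 6, at 43.7% and 42.9% in h3.3kd 1 and h3.3kd 2, against 42.6% in WT, and a single dyad of the gene was methylated in all 3 libraries. ASF1B (AT5G38110, chromosome 5, 15208358 to 15210335, plus strand, 90 CG cytosines) was at 2.31% and 3.42% in h3.3kd 1 and h3.3kd 2, against 2.99% in WT. Neither ASF1 gene was called, and no tile of either was called. An intronic ASF1B tile centred 993 bp from the TSS was at 2.30% and 0% in h3.3kd 1 and h3.3kd 2, against 22.1% in WT. It passed the FDR in both libraries (adjusted p = 0.000634 and 1.5e-06 by Fisher's exact test over all tiles). It missed the minimum of 20 points in h3.3kd 1. In ASF1B the h3.3kd libraries parted at a coding dyad 1591 bp from the TSS. That dyad was at 0% in h3.3kd 1 and 85.3% of 34 calls in h3.3kd 2, against 0% in WT, which put the 3′ 30% of ASF1B at 0% in h3.3kd 1 and 27.1% in h3.3kd 2, against 0% of 101 calls in WT, which allows a level of up to 2.97%.

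SPT16, the large subunit of FACT, has its coding sequence in 1 block (AT4G10710, chromosome 4, 6601903 to 6606357, minus strand, 230 CG cytosines). The level of SPT16 was 32.99% in h3.3kd 1 (interval 31.6 to 34.4) and 32.0% in h3.3kd 2 (30.6 to 33.5), against 35.5% in WT (34.0 to 36.9). With adjusted p of 0.0407 and 0.00303 for h3.3kd 1 and h3.3kd 2 in Fisher's exact test, SPT16 was not called over the whole gene. Its coding sequence was at 59.7% and 57.2% in h3.3kd 1 and h3.3kd 2, against 64.2% in WT. Over coding sequence alone SPT16 was called lower (larger adjusted p = 0.00532 by Fisher's exact test), among 4758 genes called lower that way. Their share of the genes tested over coding sequence was not counted. One tile of SPT16 was lower and 1 was higher. The higher tile, chr4:6604501-6604600, is entirely coding and had the largest difference of any called tile in the 9 genes. It is printed 5′ to 3′ on the minus strand, with its only dyad in capitals.
SPT16: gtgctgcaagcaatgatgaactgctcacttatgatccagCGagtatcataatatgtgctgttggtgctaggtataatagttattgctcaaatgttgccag

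This dyad was at 92.0% of 50 calls and 100% of 36 calls in h3.3kd 1 and h3.3kd 2, against 5.88% of 34 calls in WT. The lower tile of SPT16, centred 4106 bp from the TSS, was at 3.20% and 15.7% in h3.3kd 1 and h3.3kd 2, against 44.6% in WT. The 2 tiles thus lay on opposite sides of WT, the lower one near the TES.

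SSRP1, the small subunit of FACT (AT3G28730, named HMG in the annotation, chromosome 3, 10784888 to 10788729, plus strand, 172 CG cytosines), shares its last 32 bp with CYP81D11 (AT3G28740). Its gene body was at 41.9% in h3.3kd 1 (interval 40.2 to 43.5) and 44.8% in h3.3kd 2 (43.2 to 46.4), against 47.0% in WT (45.4 to 48.6). Only h3.3kd 1 passed (adjusted p = 7.6e-05 and 0.149 for h3.3kd 1 and h3.3kd 2 by Fisher's exact test), and SSRP1 was not called over the whole gene. Over coding sequence alone SSRP1 was called lower (larger adjusted p = 0.00479 by the same test), among 4758 genes called lower that way, a share not counted. At the 3′ end both libraries were below WT. Bin 9 was at 1.299% and 10.6% in h3.3kd 1 and h3.3kd 2, against 43.4% in WT, and the 3′ 30% was at 37.8% and 44.9% in h3.3kd 1 and h3.3kd 2, against 58.6% in WT.

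Of 35 tiles tested in SSRP1, 5 were lower and 1 was higher. The last lower tile lay across the TES, with 71 of its 100 bp outside the gene. The 200 bp of chr3:10788001-10788200 (42 bp coding, 158 bp intron) hold 2 neighbouring lower tiles with 1 dyad each and are shown 5′ to 3′ on the plus strand, with the dyads in capitals.
SSRP1: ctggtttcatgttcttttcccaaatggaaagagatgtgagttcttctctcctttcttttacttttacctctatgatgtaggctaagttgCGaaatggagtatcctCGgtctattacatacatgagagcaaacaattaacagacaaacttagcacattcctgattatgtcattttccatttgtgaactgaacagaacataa

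The dyad at base 90 was at 0% in h3.3kd 1 and 43.6% in h3.3kd 2, against 96.4% in WT. At base 106 the level was 0% in both h3.3kd libraries, against 42.6% in WT. The first dyad separates the h3.3kd libraries (adjusted p = 0.000116 by Fisher's exact test of its tile) and the second does not.

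Compared over the 3′ 30% of the gene, HIRA, ATRX, SPT16 and SSRP1 were called lower in h3.3kd, 4 of 9 genes, set against 20.1% of the 22627 genes tested there. None of the 9 was higher, set against 3.81% of genes. These 4 genes were at 44.1% or more at the 3′ end in WT, and the other 5 were at 23.3% or less. Mean differences were -30.7 points in HIRA, -17.3 in SSRP1, -11.6 in ATRX and -10.1 in SPT16. FAS1 was at 23.3% and 13.8% in h3.3kd 1 and h3.3kd 2, against 23.3% in WT, so that only h3.3kd 2 was below WT. Over the 5′ 30%, no chaperone gene was called, set against 3.40% of 22737 genes lower and 2.52% higher, and the median difference of the 9 was 0.533 points. Pooled over the calls of the 9 genes, the 3′ 30% was at 30.9% and 26.1% in h3.3kd 1 and h3.3kd 2, against 40.2% in WT, a mean difference of -11.7 points. The same pool over all protein-coding genes gave -3.86 points, at a WT level of 20.4%. Relative to the WT level these differences were -29.1% for the 9 genes and -18.9% for all genes.

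**Figure D5:**
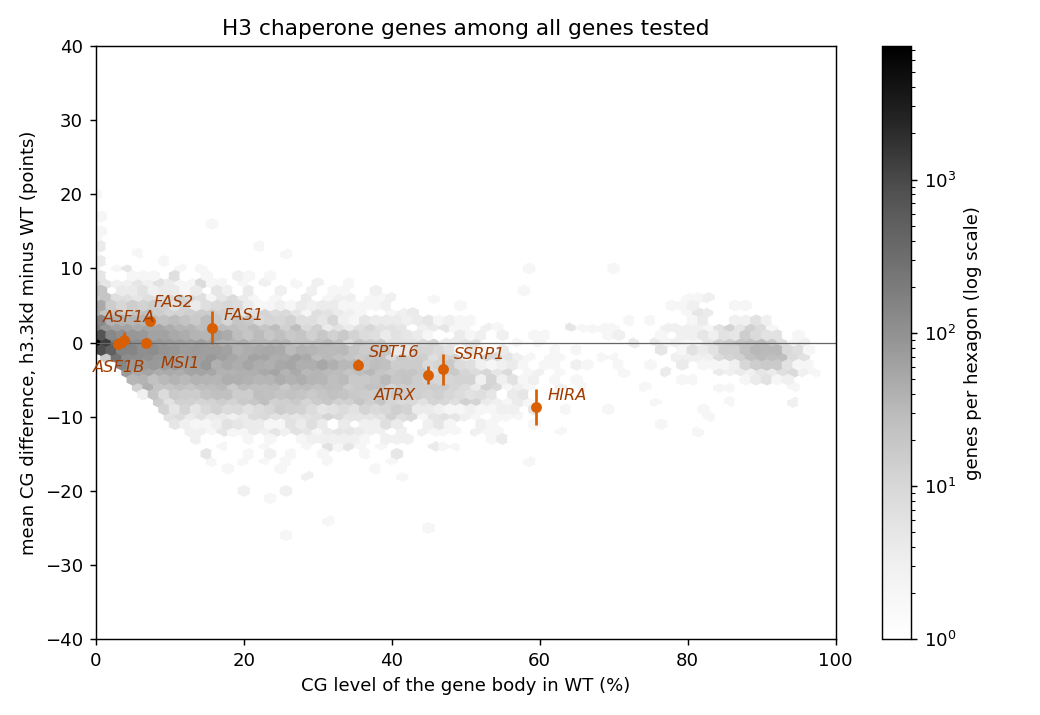
Mean CG difference of the gene body (h3.3kd minus WT, percentage points) against its CG level in WT (%) for all 26970 genes tested (grey, log scale of genes per hexagon; 4 genes beyond 40 points are off the axis) and the 9 chaperone genes (orange, with the SD of both h3.3kd libraries). HIRA, at 59.5% in WT, lies lowest of the 9 at -8.69 points, and FAS2 highest at 2.85 points.

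The replication-coupled and replication-independent genes were then compared as groups. Pooled over FAS1, FAS2 and MSI1, CG methylation was 13.6% and 12.3% in h3.3kd 1 and h3.3kd 2, against 11.2% in WT, a mean difference of 1.77 points. Pooled over HIRA and ATRX it was 45.5% and 43.2% in h3.3kd 1 and h3.3kd 2, against 50.4% in WT, a mean difference of -5.98 points. The replication-coupled genes thus stood 7.75 ± 0.707 points (SD, n = 2 libraries) above the replication-independent genes in their difference from WT. This SD holds no error of the WT library, which both differences share. Relative to the WT level, the difference was -11.9% for HIRA and ATRX, close to the -11.4% of all protein-coding genes. For FAS1, FAS2 and MSI1 it was 15.8%. The genes of each group are few and are not replicates, and the groups also differed in WT level, so no test was made. Without HIRA the contrast was 6.14 points and without ATRX 10.5 points. FACT genes had a pooled difference of -3.28 points and the ASF1 genes one of 0.025 points.

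Over all 9 genes the pooled gene body level was 30.9% and 29.9% in h3.3kd 1 and h3.3kd 2, against 33.1% in WT, a mean difference of -2.64 points or -8.00% of the WT level. Over all protein-coding genes, at a WT level of 16.7%, it was -1.90 points or -11.4% of the WT level, so that the chaperone genes had the larger difference in points and the smaller one relative to WT. Left without HIRA, the pooled difference was -1.66 points. Of 327 tiles tested in the 9 genes, 19 were lower and 9 were higher in h3.3kd, or 5.81% and 2.75%, set against 3.91% and 1.57% of gene body tiles. The h3.3kd libraries differed from each other in 15 of the 327 tiles. Among all tiles, inside and outside gene bodies, 1.92% differed, and the share of gene body tiles was not counted. Of 292 dyads that were methylated in WT, 227 were methylated in both h3.3kd libraries and 10 were unmethylated in both, or 3.42%. In gene bodies with CHG under 5%, 8.32% of such dyads were unmethylated in both. Of 466 dyads unmethylated in WT, 10 were methylated in both h3.3kd libraries, 7 of them in FAS1, or 2.15%, set against 0.883% in those gene bodies.

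CHG and CHH methylation of the chaperone gene bodies was near the level of unconverted cytosine in every library. CHG levels of single genes lay between 0.275% and 0.775% in the h3.3kd libraries, and between 0.424% and 0.902% in WT. CHH levels lay between 0.427% and 0.679% in the h3.3kd libraries, and between 0.407% and 0.652% in WT. No chaperone gene was called in either context by the same test, set against 0.943% lower and 0.200% higher of 26934 genes in CHG, and 0.863% lower and 0.261% higher of 27221 genes in CHH.

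The 1 kb upstream of the TSS was unmethylated at most of these genes, with 3 exceptions, for which values are given without a test. Upstream of ASF1B, CG methylation was 72.9% and 77.3% in h3.3kd 1 and h3.3kd 2, against 80.5% in WT. CHG methylation there was 46.8% and 41.7% in h3.3kd 1 and h3.3kd 2, against 47.0% in WT, and CHH methylation was 10.3% and 10.96% in h3.3kd 1 and h3.3kd 2, against 10.4% in WT. All 3 contexts were thus methylated next to a gene body with hardly any methylation. Upstream of HIRA, CG methylation was 41.9% and 38.2% in h3.3kd 1 and h3.3kd 2, against 46.8% in WT. CHG methylation upstream of HIRA was 16.0% and 14.2% in h3.3kd 1 and h3.3kd 2, against 22.4% in WT. CHH methylation in the same window was 2.60% and 2.09% in h3.3kd 1 and h3.3kd 2, against 3.50% in WT. Upstream of SSRP1 there was CG methylation alone, 25.2% and 26.7% in h3.3kd 1 and h3.3kd 2, against 26.7% in WT, in a window that holds part of AT3G28720.

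Of 15 other histone chaperone genes, 6 were lower in h3.3kd over the gene body and none was higher, set against 19.0% and 4.84% of all genes by the same rule. Their median difference was -2.25 points, set against -0.221 points over all genes tested. They are UBN1, UBN2 and CABIN1, which are counterparts of HIRA's partner proteins, together with NRP1, a NAP1-related H2A-H2B chaperone, SPT6L, an elongation factor named GTB1 in the annotation, and MSI2, a close relative of MSI1. UBN2 (AT1G77310) had the largest difference, at 34.5% and 35.3% in h3.3kd 1 and h3.3kd 2, against 42.1% in WT, or -7.26 points. CABIN1 (AT4G32820) was at 48.3% and 47.2% in h3.3kd 1 and h3.3kd 2, against 52.9% in WT. UBN1 (AT1G21610) was at 21.8% and 18.8% in h3.3kd 1 and h3.3kd 2, against 24.9% in WT. In each of these genes both h3.3kd libraries lay below WT, which the rule for a call requires.

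NRP1 was at 11.6% and 14.2% in h3.3kd 1 and h3.3kd 2, against 19.2% in WT. SPT6L (AT1G65440) was at 43.3% and 43.7% in h3.3kd 1 and h3.3kd 2, against 50.2% in WT. MSI2 was at 4.16% and 3.96% in h3.3kd 1 and h3.3kd 2, against 6.31% in WT. The other 9 genes of the list, the H3-H4 chaperone at AT4G37210, NAP1;1 to NAP1;4, NRP2, MSI3, MSI4 and MSI5, were not called.

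The genes whose CG profile was most like that of HIRA, over 10 bins in each of 3 libraries, were VPS54, HB-1 and PAP26. Because the h3.3kd libraries entered this distance, genes with a like difference from WT were favoured. Their levels below WT are therefore partly set by the choice. Their root mean square distances from HIRA were 12.9, 13.5 and 13.9 percentage points over 30 values, and the median distance of the 18234 genes compared was 58.3 points. VPS54 was at 44.3% and 45.2% in h3.3kd 1 and h3.3kd 2, against 49.3% in WT. HB-1 was at 50.05% and 48.1% in h3.3kd 1 and h3.3kd 2, against 56.6% in WT. PAP26 was at 45.9% and 47.9% in h3.3kd 1 and h3.3kd 2, against 52.6% in WT.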

How the data were processed

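Genomic DNA from mature leaves was bisulfite converted and sequenced (2 h3.3kd libraries and 1 WT library). The authors collapsed identical reads, mapped them with BS Seeker to TAIR10 and deposited counts of C and T calls per cytosine. No tool versions are given in the sources used here. These deposited counts were summed where a cytosine had 2 lines (1.23 to 1.25% of cytosines). Every position was checked to be a cytosine of the TAIR10.1 sequence, and 1, 2 and 0 cytosines of h3.3kd 1, h3.3kd 2 and WT had another context than the reference.

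Gene bodies (RefSeq annotation of TAIR10.1) needed 10 CG cytosines and 100 calls in every library, and gene ends (30% of genes of at least 1 kb) needed 5 and 50. Fisher's exact test used Python 3.11.15, numpy 2.4.6, numba 0.67.0 and scipy 1.17.1, and was tested on simulated data. limma 3.58.1 (R 4.3.3) added 0.5 to each count. Wilson intervals cover counting error only, since reads are not independent molecules. The rule for named genes took all 9 members, their called tiles, the other chaperones called or with the largest difference, and the 3 nearest profiles to the member with the highest WT level. The members, lists and rules were chosen with earlier results of these data known, and the windows printed were picked from the called tiles after their values were seen. Alternatives changed the filters, coding sequence, site weighting, correction for unconverted cytosine, tile grid, test and libraries.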

Additional observations from a re-analysis of the deposited data

How the results depend on the processing

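Counting coding sequence alone gave 999 lower and 154 higher genes by the rule with 10 points, instead of 389 and 82. With no minimum difference it gave 4758 lower and 1239 higher genes, and 4 lower and 0 higher chaperone genes. What share these are of the genes tested over coding sequence was not counted. The pooled difference over coding sequence was -3.45 points and the replication-coupled minus replication-independent contrast 9.79 points. limma called 0 genes and 0 chaperone genes in either direction. Leaving out h3.3kd 1 or h3.3kd 2 gave 523 to 710 lower and 136 to 154 higher genes by 10 points, and 1871 to 2223 higher genes with no minimum difference. Chaperone genes then numbered 0 to 1 lower by 10 points (HIRA, in h3.3kd 2) and 1 to 2 higher with no minimum difference (FAS1 added, in h3.3kd 1). Tiles called in the chaperone genes then numbered 24 to 29 lower and 12 to 15 higher. The share of all tiles called from 1 library alone was not counted. The pooled CHG difference was -0.0722 to 0.00963 points and the CHH difference -0.00656 to 0.0167 points. A minimum of 40 points left 9 lower and 3 higher tiles in the chaperone genes, and the share of all tiles was not counted at that minimum. The 3′ 50% gave -7.35 points instead of -11.7. Alternatives chosen after seeing the data left out single genes: without HIRA the pooled difference was -1.66 points and the contrast 6.14 points, and without ATRX the contrast was 10.5 points. No called value changed sign under these alternatives. No paired analysis was possible because WT has 1 library. With 1 WT library and about 20 calls per cytosine, the spread of WT is unknown, and a tile with 1 dyad rests on few calls.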
